A study of Mus musculus with 4 samples.

Results

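This account is about 6863 distal open-chromatin intervals of mouse brain parenchymal macrophages in which exactly 2 library-level peak calls had been merged, out of 74695 merged intervals in the series. They lay on chromosomes 1 to 19, with the centre more than 1000 bp from every protein-coding gene end and at most 100 kb from a protein-coding gene body in mm10. They were selected on the number of calls, a measured value, so that number and what depends on it are given as a description with no test.

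The macrophages had been sorted from the brain by fluorescence and profiled with Omni-ATAC, in which the Tn5 transposase inserts adapters into open chromatin. The groups were MDM, with the libraries MDM1 and MDM2, and YSM, with the libraries YSM1 and YSM2, so that the series had 4 libraries in 2 groups of 2. The title's monocyte-derived macrophages were taken to be MDM, while the labels leave YSM without an explanation. Both groups had the genotype Ms4a3-Ai9 and the treatment DR-3x, which is not explained either. Progenitors of granulocytes and monocytes express Ms4a3, and the Ai9 allele gives red fluorescence after Cre recombination. Neither the cell type that drives a recombinase nor the number of animals per library is stated in the labels. The series title asks how macrophages that enter the brain from blood and from skull bone marrow differ, and the deposited comparison was of MDM with YSM. It came as lists of 108 MDM-listed and 1104 YSM-listed intervals. The files hold no value per library, so no spread between replicates could be given.

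Distal accessible regions are mostly enhancers and other regulatory elements, where transcription factors displace nucleosomes and act on genes over some distance. In macrophages such elements are opened by lineage factors such as PU.1 and are further shaped by the tissue in which the cell lives. Their accessibility therefore differs between macrophages of different origin and niche more than that of most gene starts. With 2 calls in 4 libraries, at least 2 libraries had no called peak inside the interval. Which libraries gave the calls was not analysed here.

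Of the 7 YSM-listed members that touched a RefSeq start window of a protein-coding gene, 4 covered at least 100 of the 250 bases before the annotated start. The stretches of 3 of them, all inside the longer gene body and away from its ends, show what sequence such members held. They are printed 5′ to 3′ on the strand of the gene, from RefSeq, build GRCm38.p6. The fourth, at the predicted gene Gm3739, is named only. The other 3, at Tmeff2, Prox1 and Slc41a3, covered 47, 0 and 64 of these bases. In the Rarb line the whole stretch lies in the peak and the capitals mark a direct repeat. In the other lines the capitals mark the bases inside the peak.
Rarb, chr14:16575477-16575726, minus strand: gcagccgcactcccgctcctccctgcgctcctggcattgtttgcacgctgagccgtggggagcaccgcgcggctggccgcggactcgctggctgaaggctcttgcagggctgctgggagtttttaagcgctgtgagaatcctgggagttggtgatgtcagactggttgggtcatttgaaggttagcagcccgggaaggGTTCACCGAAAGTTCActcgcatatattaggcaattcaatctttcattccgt
Arsg, chr11:109485642-109485891, plus strand: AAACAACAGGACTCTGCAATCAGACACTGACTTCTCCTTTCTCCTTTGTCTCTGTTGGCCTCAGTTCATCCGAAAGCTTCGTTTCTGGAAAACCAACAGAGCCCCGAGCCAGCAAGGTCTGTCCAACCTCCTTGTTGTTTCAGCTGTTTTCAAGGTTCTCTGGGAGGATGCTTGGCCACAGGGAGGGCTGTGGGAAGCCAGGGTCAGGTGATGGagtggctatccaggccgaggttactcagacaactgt
Arhgap32, chr9:32032053-32032302, plus strand: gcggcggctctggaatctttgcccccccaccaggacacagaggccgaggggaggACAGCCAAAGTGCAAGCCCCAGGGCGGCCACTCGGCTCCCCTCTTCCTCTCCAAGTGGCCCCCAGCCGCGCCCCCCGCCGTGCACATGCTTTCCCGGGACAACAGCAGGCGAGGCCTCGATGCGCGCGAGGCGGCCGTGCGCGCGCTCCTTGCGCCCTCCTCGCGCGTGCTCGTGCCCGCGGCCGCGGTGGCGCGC

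Rarb encodes the retinoic acid receptor beta, a nuclear receptor that binds DNA with a retinoid X receptor. Its YSM-listed member spanned 16575416 to 16575774 on chromosome 14 and was 359 bp wide, inside the gene (16430839 to 17082331). It covered all 250 bases before the annotated internal start at 16575476. The stretch held the repeat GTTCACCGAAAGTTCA at 16575513 to 16575528, which is 52 to 37 bases before that start. It matched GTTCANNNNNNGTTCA, a spaced direct repeat of the kind bound by retinoic acid receptors, which was searched on both strands and chosen after the sequence was seen. Of 32851 RefSeq start windows, each from 250 bases before to 50 after a start, 25 (0.0761%) held it. It was found in 1 of the 145 windows touched by members and in 0 of the 1658 touched by distal peaks with 4 to 6 calls. The 1 is the Rarb window itself, so a match among members was given in advance. A match is a description of the letters. Rarb held 5 members among 7 distal peaks, all inside the gene, and 3 of the 5 were YSM-listed. The other YSM-listed members spanned 16457241 to 16457507 and 16538271 to 16538502. Rxrg, which encodes a retinoid X receptor, held 2 members, at 167588997 to 167589328 and 167618358 to 167618559 on chromosome 1, and both were YSM-listed.

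Few members lay at annotated starts inside genes. Of the 6644 members outside chromosome 18, which the start table lacks, 80 (1.20%) touched a window of a protein-coding gene and 60 (0.903%) touched that of a long noncoding RNA. The protein-coding share was 0.839% for distal peaks with 1 call, 1.21% with 3 calls, 3.75% with 4 to 6 and 7.85% with 7 or more. Members thus stood beside the 3-call peaks and below the peaks with more calls in this respect. The windows touched by members had a median GC content of 56%, against 59.7% for those touched by distal peaks with 4 to 6 calls and 52.7% for all windows. The PU.1 letters GAGGAAGT were in 10 of the 145 windows (6.90%), against 4.89% and 3.20%, and the Krüppel-like factor letters GGGNGTGG were in 41 (28.3%), against 20% and 17.6%. The AP-1 letters TGANTCA were in 8 (5.52%), against 6.76% and 7.81%, and the C/EBP letters TTGCNNAA were in 12 (8.28%), against 9.77% and 10.8%. RUNX, IRF, MEF2, MAF half-site, CTCF and TATA box letters were searched too. Each was in a smaller share of the windows touched by members than of all windows. Compared with windows touched by distal peaks with 4 to 6 calls, the share was larger for RUNX, TATA box and MEF2. It was smaller for IRF, MAF half-site and CTCF. For RUNX the share was 16.6%, against 13.4% and 16.8%. For the TATA box it was 8.97%, against 6.88% and 13.6%, and for MEF2 2.76%, against 2.71% and 3.69%. None of these differences was tested. Motifs were read on both strands in the whole window, and the windows are of gene starts, which few members touched.

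MDM-listed peaks were rare among members, as among all peaks, and YSM-listed peaks were more frequent among members than among all peaks. Of the members, 5 (0.0729%, exact 95% interval 0.0237 to 0.170%) were MDM-listed, against 0.145% of all merged peaks and 0.152% of all distal peaks. That interval contains both of these shares. Of the members, 404 (5.89%, 5.34 to 6.47%) were YSM-listed, against 1.48% of all merged peaks and 1.56% of all distal peaks. The other 6454 were in neither list and 0 were in both. By number of calls, the YSM-listed share of distal peaks was 0.410% (0.304 to 0.542%) with 1 call, 2.52% (2.14 to 2.94%) with 3 and 0.802% (0.692 to 0.925%) with 4. Distal peaks with 2 calls therefore had the highest YSM share of the call numbers from 1 to 8. The MDM-listed share was 0.0168% with 1 call, 0.0813% with 3, 0.188% with 4 and 0.413% with 5. Members made up 6.10% of the distal MDM-listed peaks, 47.9% of the distal YSM-listed peaks and 12.2% of the distal peaks in neither list. The lists and the number of calls come from the same accessibility, so these shares support nothing about each other and no test was made. The intervals cover counting error only and take each peak as independent.

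**Figure D1:**
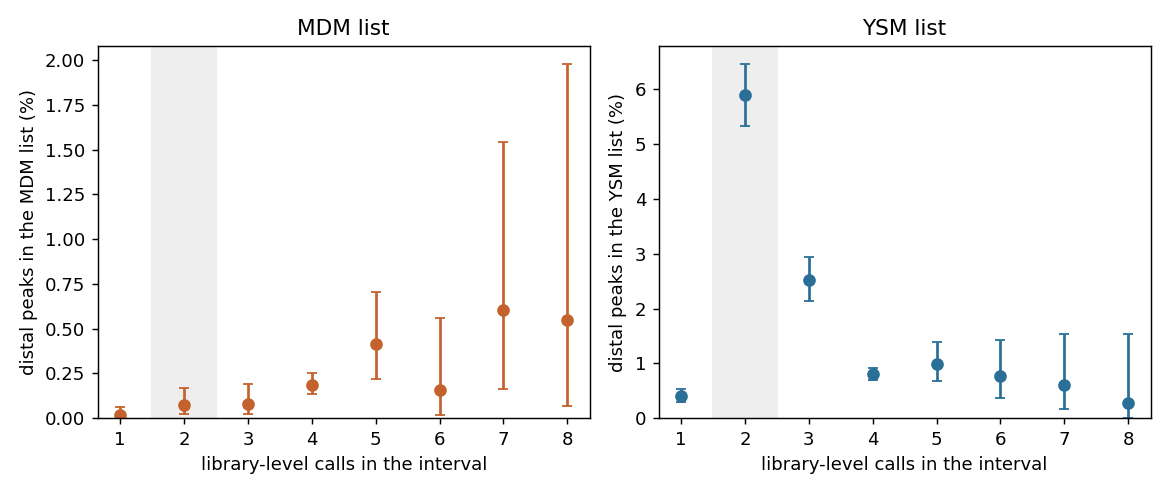
Share of distal merged peaks (%) in the MDM list (left) and the YSM list (right) by the number of library-level calls in the interval, with exact 95% binomial intervals as bars; the grey band marks 2 calls. The YSM share is 5.89% at 2 calls and 2.52% at 3, while the MDM share at 2 calls is 0.0729%.

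The rule left out 1829 of the 8692 merged intervals with 2 calls. Of these, 226 were on X, Y or unplaced sequence, 1121 lay within 1000 bp of a gene end and 482 lay over 100 kb from a gene. Just inside the threshold at gene ends, 20 of 278 intervals 1001 to 1500 bp away were YSM-listed (7.19%). Just outside it, 9 of 445 intervals 501 to 1000 bp away were (2.02%). At the far threshold, 6 of 48 members 90001 to 100000 bp from a gene were YSM-listed, and 2 of 48 intervals 100001 to 110000 bp away were.

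The width of a member gave the distance between its calls. All 15127 intervals with 1 call in the series were 201 bp wide, so a 2-call interval of 201 bp holds calls at the same place, and each further base is a base of offset if both calls have that width. Members were 201 to 401 bp wide, with a median of 235 bp, which is a median offset of 34 bp with quartiles of 12 and 74 bp. In 148 members (2.16%) the calls coincided, in 2516 (36.7%) they lay within 20 bp and in 1116 (16.3%) they were over 100 bp apart. Most members thus held calls that shared most of their length. The median offset was 33 bp for the 4431 members inside genes and 34 bp for the 2432 outside genes.

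MDM-listed members had offsets of 0, 5, 11, 18 and 95 bp. YSM-listed members had a median offset of 30 bp (quartiles 11 and 59 bp), and members in neither list one of 34 bp (quartiles 12 and 75 bp). The YSM-listed share was 7.23% (5.90 to 8.76%) at offsets of 21 to 40 bp, 4.33% (3.16 to 5.77%) at 61 to 100 bp and 6.18% (3.96 to 9.13%) at 151 bp or more. The first pair are the highest and the lowest of 8 offset classes. No test was made, and every class held YSM-listed members.

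**Figure D2:**
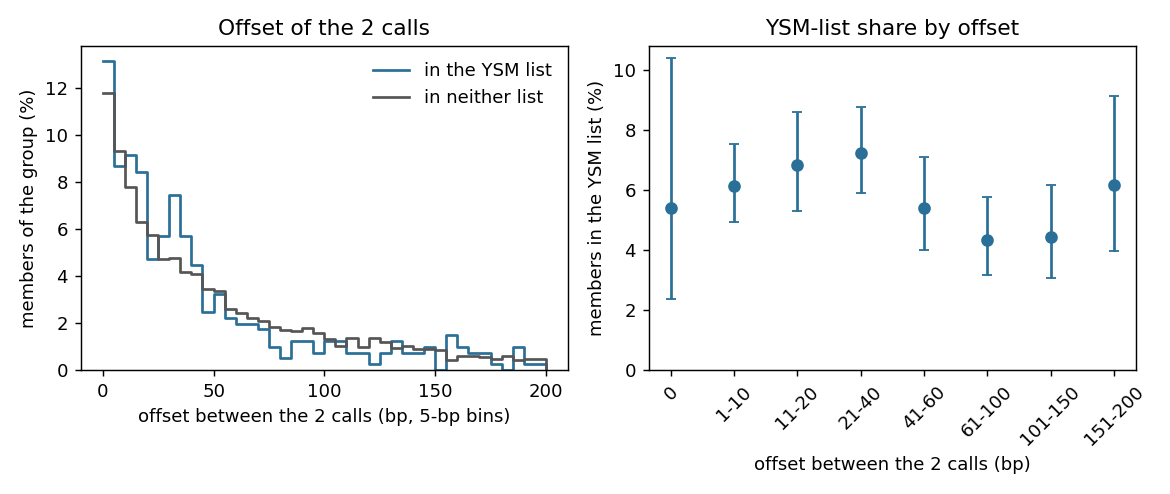
Left, distribution of the offset between the 2 calls of a member (width minus 201 bp, in bins of 5 bp), as a percentage of the 404 YSM-listed members and of the 6454 in neither list. Right, percentage of members in the YSM list by offset, with exact 95% intervals; the shares lie between 4.33% and 7.23%.

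Members lay inside genes about as often as other distal peaks, and YSM-listed members more often than members in neither list. The centre was inside a protein-coding gene for 64.6% of members (exact 95% interval 63.4 to 65.7%), against 63.3% of distal peaks with 1 call, 61.8% with 3 and 60.9% with 4 to 6. It was inside for 73.3% of YSM-listed members (68.7 to 77.5%), against 64.0% of members in neither list (62.8 to 65.2%). Of the 5 MDM-listed members, 4 were inside. Outside genes, the median distance to the gene was 24.1 kb for the 108 YSM-listed members and 15.1 kb for the 2323 in neither list. YSM-listed members outside genes thus lay farther out, and these differences were not tested. Exons and introns were not told apart.

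Many members had another merged peak close by, in which other calls had been placed. Another merged peak lay within 500 bp of 1902 members (27.7%), against 31.5% for 1-call, 26.0% for 3-call and 20.2% for 4-to-6-call distal peaks. The neighbour had 1 call in 539 cases, 2 in 338, 3 in 229, 4 to 6 in 764 and 7 or more in 32. In 30 cases the intervals touched. YSM-listed members stood more alone, with a neighbour within 500 bp for 84 of 404 (20.8%), against 28.2% of members in neither list. For 33 of these 84 members (39.3%) the nearest merged peak was YSM-listed too, against 1.48% of all merged peaks. Listed members next to each other were both counted, so the 33 are not distinct neighbours. This was not tested. The median gap to the next merged peak was 4.05 kb for YSM-listed members and 2.68 kb for members in neither list.

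The genes of YSM-listed members less often had a widely called peak at their own ends. A peak with at least 4 calls lay within 1000 bp of an end of the assigned gene for 210 of 404 YSM-listed members (52.0%), against 70.0% of members in neither list. The share was 68.0% for 1-call, 70.0% for 3-call and 70.2% for 4-to-6-call distal peaks. No merged peak at all lay at the ends of the gene for 30.0% of YSM-listed members and 23.4% of members in neither list. These differences were not tested, since members of a gene share its ends and peaks are not replicates.

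**Figure D3:**
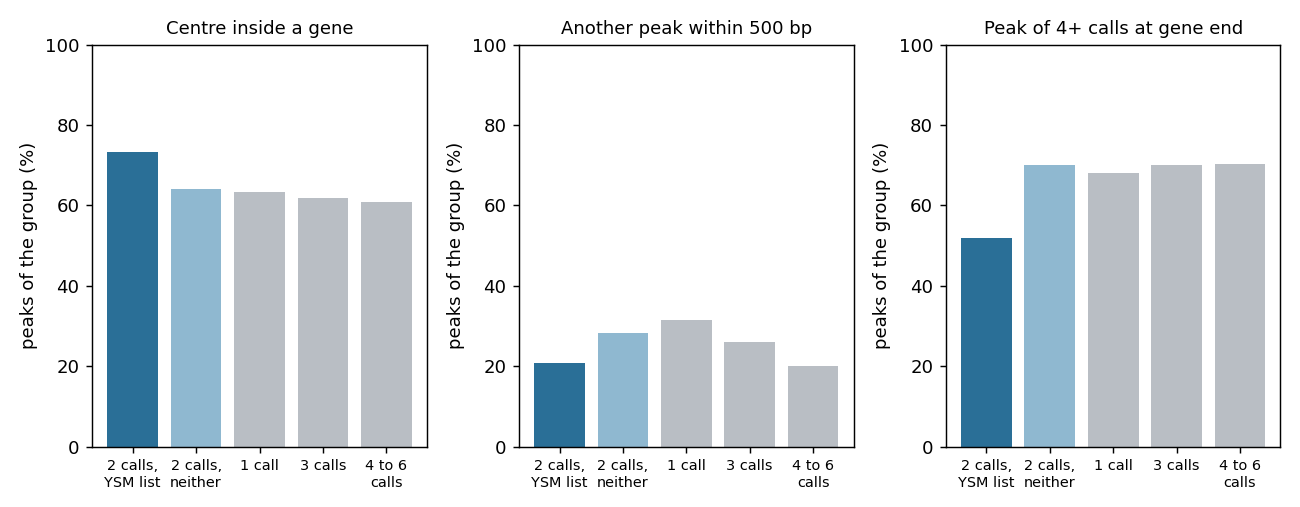
Percentage of distal peaks whose centre lay inside a protein-coding gene (left), that had another merged peak within 500 bp (middle) and whose gene had a peak of at least 4 calls at an end (right), for members in the YSM list, members in neither list and distal peaks with 1, 3 and 4 to 6 calls. Members in the YSM list stand at 73.3%, 20.8% and 52.0%, and members in neither list at 64.0%, 28.2% and 70.0%.

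The members lay at 4309 genes, of which 2825 held 1, 909 held 2, 309 held 3, 236 held 4 to 6 and 30 held 7 or more. Genes with more members were longer, with a median length of 34.1 kb for 1 member, 101 kb for 3 and 297 kb for 7 or more. The 7165 genes with other distal peaks and no member had a median of 22.4 kb. Counts per gene therefore follow length in part, and shares of a gene's own distal peaks are given beside them. Over all genes, 12.7% of distal peaks were members, and over the 110 genes with 5 or more members the median share was 24.4%. These 110 genes were selected on their number of members, which by itself raises the share. The difference from 12.7% therefore does not show that members were concentrated at them.

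The 12 genes with the most members held 112, of which 5 (4.46%) were YSM-listed, near the 5.89% over all members. Because these genes were ranked by number of members, the shares of their distal peaks given here are raised by that choice. Foxp1, a forkhead repressor with a role in monocyte differentiation, held 13 among 57 distal peaks (22.8%), 12 of them inside the gene (chromosome 6, 98925342 to 99522746). Hdac9, a class IIa histone deacetylase gene, held 11 of 51 (21.6%), and Runx1, the transcription factor of definitive blood formation, 9 of 38 (23.7%). None of the members at these 3 genes was listed. Sipa1l1, which encodes a GTPase-activating protein for Rap, held 10 of 34 (29.4%), with 2 YSM-listed. Pard3b, a cell polarity gene of 1000 kb, held 8 of 25 (32.0%), with 3 YSM-listed. The neuron navigator gene Nav2 held 10 of 59, the homeobox gene Cux1 9 of 34, Tbc1d1, which encodes a Rab GTPase-activating protein, 9 of 41, and the FERM domain scaffold gene Frmd4a 9 of 55. Ssbp2, a cofactor gene of LDB1 complexes, held 8 of 26, the splicing regulator gene Mbnl1 8 of 29, and the kinase anchoring protein gene Akap13 8 of 50.

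YSM-listed members lay at 323 genes, with 1 each at 269, 2 each at 36, 3 each at 13 and 4 or more at 5. Of the 13 tied at 3, the 7 with the largest share of their members YSM-listed, then by symbol, are described with the 5. At Ptprm, a receptor tyrosine phosphatase gene of cell contacts, all 6 members were YSM-listed. They lay inside the gene (chromosome 17, 66666848 to 67354491) between 67193920 and 67347388. The gene had 17 distal peaks, of which 9 were YSM-listed. Adamts16, a secreted metalloprotease gene, had 5 YSM-listed among 6 members, and these 5 were all beyond the gene, at distances of 5233 to 93525 bp. Magi1, a junction scaffold gene, had 5 among 7, all inside, from 94163183 to 94274077 on chromosome 6. These loci differed in shape, with members inside the 2 long genes and beyond the end of the third.

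Slc1a3, the astrocyte glutamate transporter gene, had 4 members and Kcnj12, an inward-rectifier potassium channel gene, had 5. All 4 at Slc1a3 and 4 of the 5 at Kcnj12 were YSM-listed. Kcnk2, a leak potassium channel gene, had 3 members, all YSM-listed, of which 2 lay outside the gene at 22604 and 36617 bp. Marco, a scavenger receptor gene, had 3, all YSM-listed and outside the gene at 12781, 24845 and 31097 bp. Elavl4, a neuronal RNA-binding protein gene, Gatb, a gene of mitochondrial glutaminyl-tRNA synthesis, and Tafa1, which encodes a secreted chemokine-like protein of the brain, had 3 each, all YSM-listed. Klf12, a Krüppel-like factor gene, and Sall1, the zinc-finger factor gene of microglial identity, had 3 YSM-listed among 4. At Sall1 (chromosome 8, 89027242 to 89044162) these were 213, 303 and 299 bp wide, with 1 inside the gene and 2 outside at 5839 and 11806 bp. YSM-listed members without these 12 genes made up 5.27% of the remaining 6812 members, an alternative chosen after seeing the data.

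**Figure D4:**
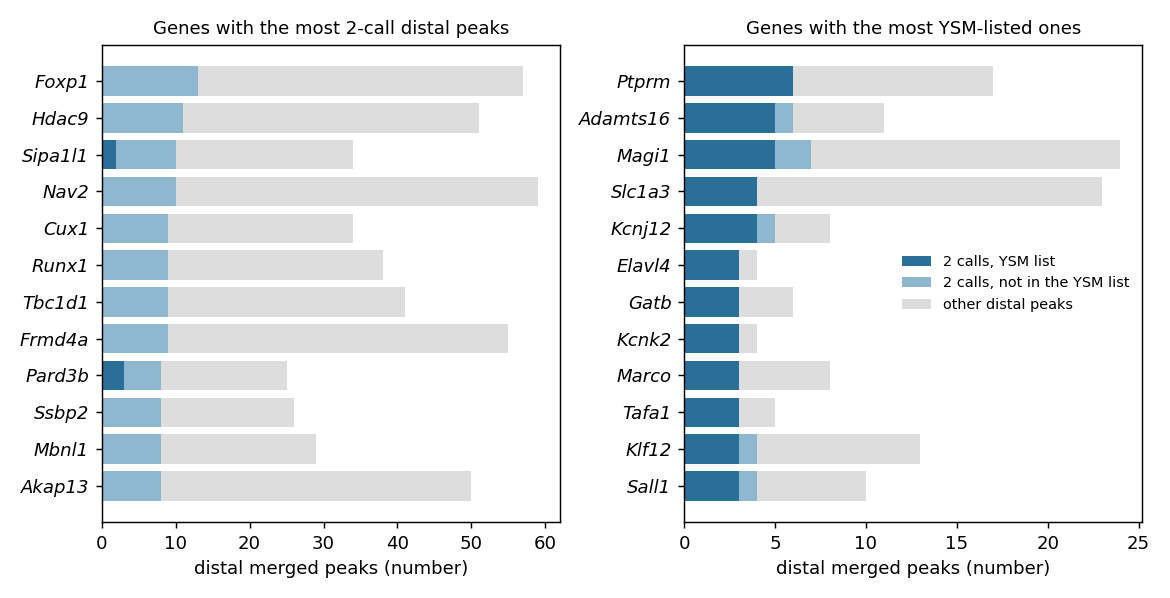
Distal merged peaks per gene, split into YSM-listed members, members not in the YSM list and distal peaks with another number of calls, for the 12 genes with the most members (left) and for 12 genes ranked by YSM-listed members (right), where 7 of the 13 genes tied at 3 are drawn by the share of their members that is listed, then by symbol. Foxp1 has 13 members and none in the YSM list, while all 6 members at Ptprm are in it.

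The 5 MDM-listed members lay at 5 genes. At Actr3, which encodes a subunit of the actin-nucleating Arp2/3 complex, the member spanned 125470943 to 125471143 on chromosome 1, outside the gene at 35316 bp. The others were inside their genes. At Frs2, an adaptor gene of fibroblast growth factor receptors, it spanned 117072436 to 117072641 on chromosome 10, and all 4 distal peaks of that gene were members. At Pde7b, a cAMP phosphodiesterase gene with 7 members, it spanned 20505498 to 20505709 on chromosome 10. At Mcf2l it spanned 12984035 to 12984253 on chromosome 8, and at Ccdc125 100676207 to 100676502 on chromosome 13. Actr3, Ccdc125, Frs2, Mcf2l and Pde7b had 15, 5, 4, 7 and 21 distal peaks, and none of these was YSM-listed. Of all distal peaks 1.56% were YSM-listed, so none among so few is near the overall share.

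Members of the same gene formed short runs. A run was 3 or more members of 1 gene with at most 10000 bp between neighbouring centres. There were 70 runs at 69 genes, which took 218 members (3.18%). The number of genes depends on the definition and was 35 with gaps of at most 5 kb, 194 with 25 kb and 37 when members at most 1000 bp apart were taken as 1. Of the runs, 62 had 3 members, 8 had 4 and 0 had more, and they spanned 884 to 19900 bp with a median of 6877 bp. In 36 runs no other merged peak lay between the members. Of the runs, 53 were inside genes, 14 outside and 3 crossed a gene's end. YSM-listed peaks were 24 of the 218 members in runs (11%) and 380 of the members outside runs (5.72%), and no run held an MDM-listed member. Without the 3 runs in which every member was YSM-listed, 14 of 208 were (6.73%), a choice that removes listed members by construction.

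The 3 runs of YSM-listed members alone lay at Kcnj12, Elavl4 and Gatb. At Kcnj12 (chromosome 11, 61022564 to 61073269) the run had 4 members, at 61028179 to 61028457, 61029677 to 61029908, 61036182 to 61036393 and 61042433 to 61042676. No other merged peak lay among them, so that the run was a stretch of 14498 bp inside the gene in which every merged peak had 2 calls and was YSM-listed. At Elavl4 the 3 members were 348, 201 and 219 bp wide and lay within 884 bp on chromosome 4, separated by 69 and 47 bp. At that spacing the 3 intervals cannot be told apart from pieces of 1 accessible region. At Gatb the 3 members lay between 85592841 and 85597083 on chromosome 3, with 2 of them 322 bp apart. At Blk, which encodes a Src family kinase of B cells, 2 of 3 were YSM-listed, and at Klhl3, an adaptor gene of a cullin ubiquitin ligase, 2 of 3 were.

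The other 8 of the 10 runs that rank first by members held 2 YSM-listed among 31 members (6.45%). Leaving out the Kcnj12 and Elavl4 runs, in which every member was YSM-listed, lowers this share by construction. At Rhoh, which encodes a small GTPase of blood cells, 4 members lay within 1222 bp (chromosome 5, 65888369 to 65889590) and none was listed. The last of them touched the one before. Runs of 4 also lay at the ubiquitin ligase gene Rnf41, the arrestin-domain gene Arrdc3, Tbc1d1 and the messenger RNA decay gene Patl1, with no listed member. At Spg11, a gene of lysosome maintenance, and at the tyrosine kinase gene Abl2, 1 of 4 was YSM-listed. Lef1, a transcription factor gene of the Wnt pathway, had 3 within 1125 bp, none listed. At Arrdc3 the whole run was 32272 to 39913 bp away from the gene, and at Patl1 it lay inside and covered 19900 bp.

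**Figure D5:**
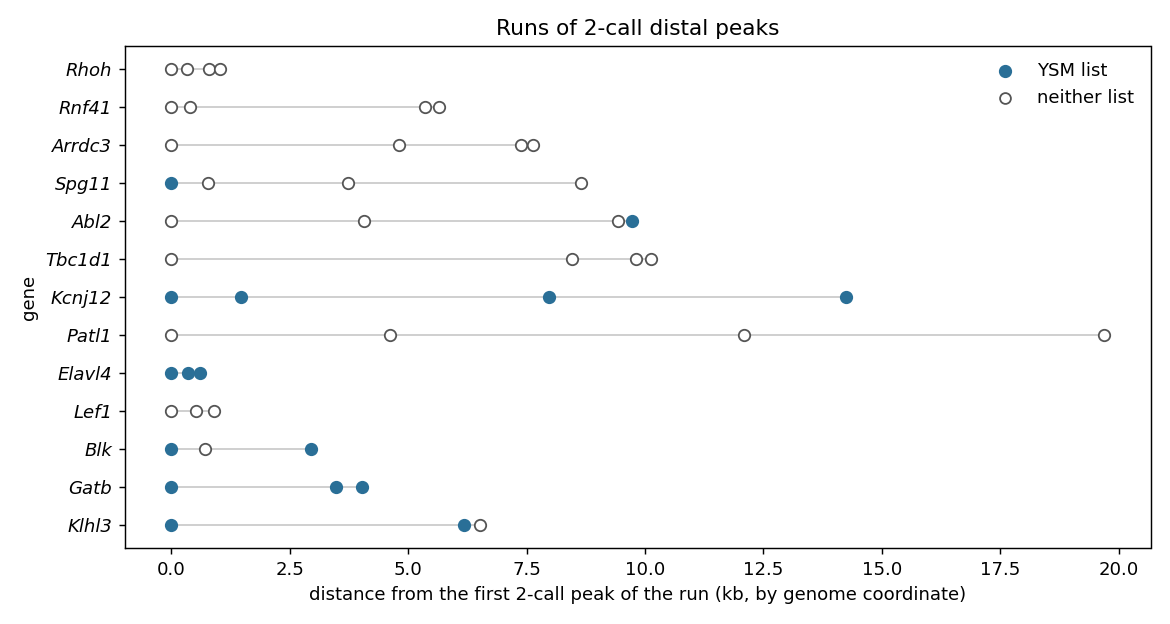
Position of each member of a run along the genome, in kb from the first member of that run, for the 10 runs that rank first by members and then by shorter span, and for the 3 other runs with at least 2 YSM-listed members. Filled points are YSM-listed and open points are in neither list. The Kcnj12, Elavl4 and Gatb runs are filled throughout.

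The gene lists, drawn up with earlier results of these data known, are described by counts beside all genes, for which 37.6% of the genes with distal peaks had a member and 5.89% of members were YSM-listed. Of the microglial identity list, 11 of 22 genes had members, 27 in all, and 9 (33.3%) were YSM-listed, 3 each at Sall1, Sall3, a paralogue of Sall1, and the neuron navigator gene Nav3. The other 18 members, at these and 8 further genes of the list, were in neither differential list, among them 3 at Fcrls, an Fc receptor-like gene. Of the cell junction and guidance list, 19 of 21 genes had members, 47 in all, and 13 (27.7%) were YSM-listed, 6 at Ptprm, 5 at Magi1 and 1 each at the adhesion genes Sdk1 and Jam2. Of the 66 members at macrophage transcription factor genes, 3 (4.55%) were YSM-listed, 2 at Rxrg and 1 at Mef2d. Of these factor genes with distal peaks, 32 of 46 had a member (69.6%), with 9 at Runx1 and 5 at Mef2c. Members were 10.3% of their distal peaks, against 12.7% over all genes.

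The monocyte and monocyte-derived macrophage list had 11 members at 8 of 20 genes, and none was in either differential list. Of all members 5.89% were YSM-listed and 0.0729% MDM-listed, so 0 among 11 is near the overall shares. These 11 members made up 8.33% of the distal peaks at the genes of that list, against 12.7% over all genes. Over the 11 lists this share ran from 7.41% at border-associated macrophage genes to 18.1% at cell junction and guidance genes. It was 16% at microglial identity genes. Itga4, the alpha-4 integrin gene of leukocyte entry, held 3 of the 11 members of the monocyte and monocyte-derived macrophage list. Border-associated macrophage genes had 6 members, 4 of them at the endocytic adaptor gene Dab2. Disease-associated microglia and lysosome genes had 10, interferon response genes 4, and lymphocyte and neutrophil genes 2. In each of these lists 0 members were listed, which for so few members is near the overall shares too. Inflammation and NF-kB genes had 21, with 1 YSM-listed at Cd14, a co-receptor for lipopolysaccharide, and 3 unlisted at Nfkbiz, which encodes a nuclear NF-kB regulator. Phagocytosis and complement genes had 15, of which the 3 YSM-listed were those of Marco.

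Genes of other brain cells held members too. The neuron, glia and vessel list had 14, and its 4 YSM-listed members were those of Slc1a3. The myelin gene Mbp held 3, none of them listed. As a check on the sorted cells, a peak with at least 4 calls lay at an end of 4 of 6 microglial marker genes, 3 of 6 monocyte, 2 of 4 border-associated macrophage, 0 of 4 neutrophil, 0 of 4 lymphocyte, 0 of 3 neuron, 1 of 3 astrocyte, 2 of 2 oligodendrocyte and 1 of 3 vessel marker genes. The astrocyte gene was Slc1a3, and the oligodendrocyte genes were Mbp and Mog. The part of other cell types in the YSM-listed members was not tested.

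Members took a similar share of distal peaks on each chromosome, and the share of them that was YSM-listed varied more. Members were 11.3% of distal peaks on chromosome 7 and 14.4% on chromosome 3, the lowest and the highest share. The YSM-listed share of members was 2.96% (6 of 203) on chromosome 19 and 12.7% (36 of 283) on chromosome 14, the lowest and the highest. It was 8.51% on chromosome 1 and 3.53% on chromosome 2. The exact 95% intervals of chromosomes 14 (9.07 to 17.2%) and 1 (6.17 to 11.4%) lay above the 5.89% over all members. That of chromosome 2 (up to 5.34%) lay below it, and the other 16 contained it. The intervals take each peak as independent, though several YSM-listed members can share a gene. All chromosomes were looked at, the 5.89% includes the members of each, and no difference was tested. The MDM-listed members lay on chromosomes 1, 8, 10 and 13, with 2 on chromosome 10.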

How the data were processed

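Per the submitters' processing notes, the tools were Trimmomatic 0.39, Bowtie2 2.2.5, Picard and HOMER, and the genome build was mm10. Per the file headers, the authors combined the peaks of the 4 libraries by HOMER mergePeaks. Settings of the peak caller, any Tn5 shift and the thresholds of the differential lists are not stated in the labels or headers. The score column of the deposited lists was not used as a value, and library depth was not analysed here. The number of calls was read from the peak's name.

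Genes came from RefSeq GRCm38.p6, with 20665 protein-coding genes on chromosomes 1 to 19. A peak belonged to the gene body nearest to its centre. Where the centre lay in several genes (39 members), the one with the closest end was taken. All 108 MDM-listed and 1104 YSM-listed peaks matched a merged peak exactly. Coordinates are 1-based. Shares carry exact binomial 95% intervals (scipy 1.17.1), and no hypothesis test was run. Placement and run finding were tested on simulated data.

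The 11 gene lists, the members and the rules were chosen with earlier results of these data known. Named genes were the 12 with the most members (ties by larger share of the gene's distal peaks), those of the 10 runs with the most members (ties by shorter span), the 12 with the most YSM-listed members (ties by larger share listed, then symbol), all with an MDM-listed member, and list genes with at least 3 members or a listed one (up to 4 a list). Rarb, Arsg, Arhgap32, Gm3739, Tmeff2, Prox1, Slc41a3, Blk and Klhl3 were named after their values were seen. No genome sequence was used, so base composition and motifs were read from RefSeq start windows only.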

Additional observations from a re-analysis of the deposited data

How the results depend on the processing

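Of 29 alternative values over 6 results, 22 stayed close to the first value and 7 moved. Those that matched the lists by overlap could hardly move, because every listed peak had the coordinates of a merged peak. The number of members lay between 6399 and 7308 under other distances and gene sets. The MDM-listed share stayed between 0.0729% and 0.0875%. The YSM-listed share stayed between 5.89% and 6.45% under other matches, widths, distances and gene sets, with neighbours counted once and, chosen after seeing the data, without members that had a merged peak within 500 bp. It was 5.27% without the 12 genes ranked first by YSM-listed members, which removes listed members by construction. The share inside genes was 68.7% with genes of every annotated kind, which adds gene bodies. The number of genes with runs depended most on the definition. It was 69, against 35 with gaps of at most 5 kb, 194 with 25 kb, 36 with no other merged peak between members, 37 with members within 1000 bp counted once, and 8 with at least 4 members. The 35, 36 and 37 genes were all among the 69. No paired analysis was possible because the files hold no value per library, and for the same reason no library could be left out.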
